A study of Mus musculus with 16 samples.

Results

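The Cisd and Chchd genes, 2 families of nuclear genes for small mitochondrial proteins, were examined in oocytes and eggs with and without a conditional knockout of Psma7, the α4 subunit of the 20S proteasome core. The 10 members were taken by gene name from a table of 28618 entries, and each name had 1 entry. They were Cisd1, Cisd2, Cisd3, Chchd1, Chchd2, Chchd3, Chchd5, Chchd6, Chchd7 and Chchd10. Cisd1 and Chchd2 were picked because their FPKM (sequenced fragments scaled by transcript length and library size) was higher in Psma7 cKO eggs than in WT eggs. Their egg values are therefore given as a description, with no test. The other 8 were taken for their family name alone and were tested in every comparison where their level allowed it.

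Poly(A)-tailed RNA was sequenced from mouse oocytes of 2 genotypes at 2 stages, and the 16 libraries fell into 4 groups of 4 pools that the labels call biological replicates. The control females are given as wildtype (WT), with no further allele. Psma7 cKO females were Psma7 flox/flox with Zp3-Cre, a transgene that is active in growing oocytes, so that the somatic cells of the follicle kept Psma7. The floxed line was on a C57BL/6 background. All females, aged 3 to 4 weeks, received 5 IU of PMSG, a hormone that stimulates follicle growth. GV oocytes, arrested in prophase of the first meiosis, were collected 44 h later. Eggs, the term used here for oocytes labelled as metaphase II (MII), came from oviducts 14 to 16 h after hCG. That hormone was given 44 h after PMSG and triggers maturation. The eggs were freed of cumulus cells with 0.3% hyaluronidase. Among ovulated Psma7 cKO oocytes the study reports some still at the GV stage and some that had not completed the first meiosis. The labels do not say whether such oocytes were left out of the cKO egg pools. Each library was a pool, of 5 oocytes according to the labels. The study's methods give a larger number, so the size of the pools is uncertain. The labels do not say how many females gave each pool.

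Cisd proteins hold an iron-sulfur cluster in a CDGSH domain, in which 3 cysteines and 1 histidine bind the iron. CISD1 (mitoNEET) sits in the outer mitochondrial membrane, CISD2 in the membranes of the endoplasmic reticulum and mitochondria, and CISD3 in the mitochondrial matrix. Most Chchd proteins lie in the intermembrane space, where an oxidative import pathway traps them by closing disulfide bonds between pairs of cysteines. During meiotic maturation oocytes do not transcribe, and their store of maternal mRNA is translated, stored or degraded while they carry a very large population of mitochondria to the embryo.

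The coding sequences of these domains are shown to set Cisd1 and Chchd2 beside their named relatives. They were read from GENCODE release M21 on GRCm38 and run 5′ to 3′ in the sense of the gene. Capitals mark the codons of the 3 cysteines and the histidine of the CDGSH motif. The Cisd1 stretch joins chr10:71336214-71336237 and chr10:71331103-71331126 on the minus strand, and the Cisd2 stretch joins chr3:135411011-135411034 and chr3:135408867-135408890 on the minus strand. Cisd3 holds the motif 2 times, first in chr11:97686594-97686620 joined to chr11:97688268-97688288 and again at chr11:97688355-97688402, on the plus strand.
Cisd1: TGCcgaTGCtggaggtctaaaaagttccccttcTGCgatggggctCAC
Cisd2: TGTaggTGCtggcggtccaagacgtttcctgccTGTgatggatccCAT
Cisd3 first: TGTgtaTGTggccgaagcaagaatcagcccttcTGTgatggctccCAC
Cisd3 second: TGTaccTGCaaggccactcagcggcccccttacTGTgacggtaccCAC
Over these 48 bases Cisd1 shared 32 with Cisd2 (66.7%), 28 with the first copy in Cisd3 (58.3%) and 25 with the second (52.1%).

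Among the Chchd genes, Chchd2 and Chchd10 form a pair of close paralogues whose mature proteins sit in the intermembrane space and are both known from inherited neurodegenerative disease. Their cysteine region is shown with the cysteine codons in capitals. The Chchd2 stretch lies at chr5:129882442-129882534 on the minus strand and the Chchd10 stretch at chr10:75937349-75937441 on the plus strand, each within 1 coding exon.
Chchd2: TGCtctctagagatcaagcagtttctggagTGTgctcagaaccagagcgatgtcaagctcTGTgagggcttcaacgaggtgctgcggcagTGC
Chchd10: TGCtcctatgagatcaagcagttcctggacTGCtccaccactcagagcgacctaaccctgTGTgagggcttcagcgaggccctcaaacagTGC
The pair shared 66 of 93 bases (71.0%). Each stretch holds 4 cysteine codons with 9 codons between neighbours.

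Psma7 was lower in every cKO library than in every WT library of the same stage. Depth was estimated from the steps between low FPKM values at 10.5 to 15.7 M fragments per library. Psma7 was 165.0 ± 25.3 FPKM (SD, n = 4) in WT GV oocytes and 14.6 ± 2.8 FPKM in cKO GV oocytes, and 126.0 ± 32.1 FPKM in WT eggs. Among cKO eggs it ranged from 13.6 FPKM in replicate 1 to 59.9 FPKM in replicate 4, with a mean of 39.7 ± 20.2 FPKM. The 10 oocyte markers, such as the zona pellucida genes Zp1, Zp2 and Zp3, summed to 13520 to 14400 FPKM over the GV libraries and to 8321 to 11810 FPKM over the egg libraries. Of 12 cumulus and granulosa cell markers, 10 stayed below 1 FPKM in every library, and the summed level of all 12 was 12.4 to 17.5 FPKM in GV libraries and 17.4 to 21.4 FPKM in egg libraries. Most of that sum was Cyp19a1, the aromatase gene, and the other marker above 1 FPKM was Kitl. Both were higher on average in WT eggs than in WT GV oocytes, Cyp19a1 at 13.5 against 8.1 FPKM and Kitl at 5.9 against 3.9 FPKM. Amh and Foxl2 were at 0 in every egg library. Among cKO eggs, replicate 3 stood apart. The 397 transcripts that were over 10-fold lower in WT eggs than in WT GV oocytes summed to 34.5% of their GV level in that library, against 12.7%, 8.80% and 19.0% in replicates 1, 2 and 4 and 5.93% to 6.80% in WT eggs. The tests on eggs are therefore given with and without replicate 3. Whether cKO egg pools held oocytes of an earlier stage was not tested.

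In GV oocytes the members spanned a wide range of levels, and the genotypes overlapped for all 10. Among the 11062 entries tested there, every cKO library was above every WT library for 4.25% and below for 2.42%. FPKM is scaled for transcript length, so levels of different genes are set side by side here as a description. Whether priming from the poly(A) tail or reads shared with near-identical copies shift levels between genes was not tested. In WT GV oocytes Chchd2 was highest at 197.7 ± 22.9 FPKM (SD, n = 4), followed by Cisd1 at 168.9 ± 27.8 FPKM, and the ranges of the pair overlapped. Next came Chchd6 at 72.2 ± 5.6, Chchd3 at 68.9 ± 4.5 and Chchd1 at 57.2 ± 10.4 FPKM, whose neighbouring ranges also overlapped. Chchd3 and Chchd6 encode subunits of MICOS, the complex that shapes the inner membrane into cristae, and Chchd1 encodes a protein of the small subunit of the mitochondrial ribosome. Chchd10 followed at 23.2 ± 4.1 FPKM and Cisd2 at 16.3 ± 1.6 FPKM, each apart from its neighbours. Chchd5 at 3.16 ± 0.21 and Chchd7 at 2.83 ± 0.57 FPKM overlapped with each other, and Cisd3 was lowest at 0.991 ± 0.389 FPKM. Thus 1 Cisd gene was among the most abundant members while another was barely detected.

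The order was the same in cKO GV oocytes, where Chchd2 was at 199.0 ± 24.7 FPKM and Cisd1 at 164.1 ± 31.3 FPKM. The question was whether loss of Psma7 during oocyte growth had altered these transcripts before maturation. Cisd1 was 157.9, 140.4, 206.0 and 171.5 FPKM in the 4 WT GV libraries and 175.3, 150.8, 128.9 and 201.6 FPKM in the 4 cKO GV libraries. Chchd2 was 201.0, 165.2, 218.3 and 206.4 FPKM in WT and 213.5, 194.1, 166.4 and 222.0 FPKM in cKO GV oocytes. For both genes the cKO values lay among the WT values or just beyond them. On log2 of FPKM with values below 1 set to 1, the fold change was -0.05 ± 0.15 for Cisd1 (SE, adjusted p = 0.940, limma) and 0.0083 ± 0.12 for Chchd2 (adjusted p = 0.987). GV libraries played no part in choosing these genes, so both could be tested there.

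None of the 9 members that passed a mean of 1 FPKM was called in GV oocytes at an adjusted p under 0.05 (limma with Benjamini-Hochberg adjustment). In that comparison 0.118% of 11062 entries were called, so a count of 0 of 9 is near the background. Chchd6 was the 1 member with an unadjusted p under 0.05 (limma). Of the 11062 entries, 843 had such a p and were higher in cKO, and 339 had one and were lower. So 1 such member among 9 does not stand out. It was 68.2, 67.5, 79.5 and 73.6 FPKM in WT and 87.9, 85.6, 80.4 and 77.8 FPKM in cKO GV oocytes, with the lowest cKO library below the highest WT library. Its log2 fold change was 0.20 ± 0.09 (SE, adjusted p = 0.441). The others ranged from -0.13 ± 0.21 for Chchd7 to 0.0083 ± 0.12 for Chchd2 on the log2 scale. Cisd3 was not tested because its mean was under 1 FPKM, and it was listed at 1.36, 1.13, 1.03 and 0.445 FPKM in WT and 0.652, 0.285, 0.746 and 1.11 FPKM in cKO GV oocytes.

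**Figure D1:**
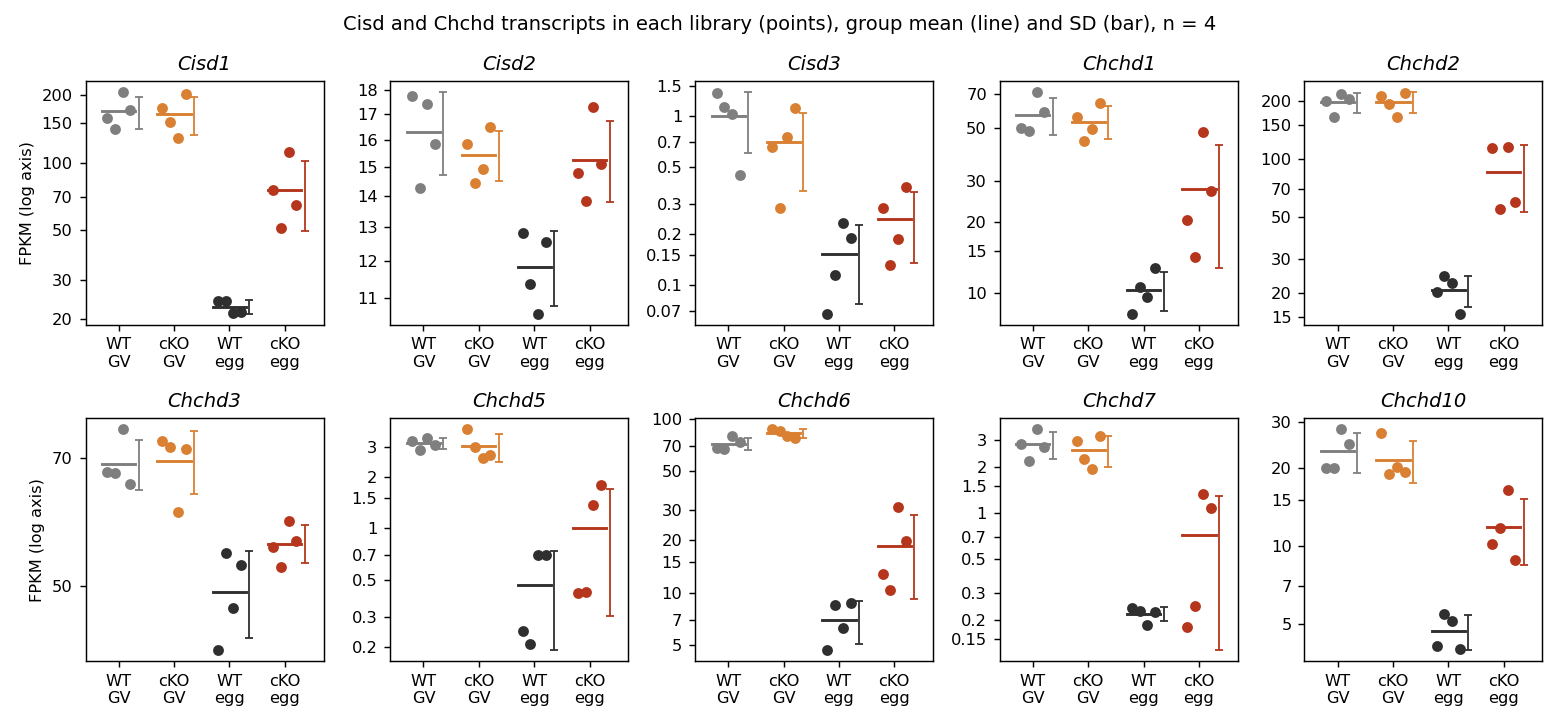
FPKM of the 10 Cisd and Chchd transcripts in each library on a log axis that differs between panels, for WT and cKO GV oocytes and eggs. Points are the 4 replicates of a group in order from left to right, lines the means and bars the SD. The genotypes overlap in GV oocytes in every panel, and in eggs the cKO points lie above all WT points for Cisd1, Cisd2, Chchd1, Chchd2, Chchd6 and Chchd10.

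After maturation in WT, Chchd1, Chchd5, Chchd6, Chchd7 and Chchd10 stood at a much smaller share of their GV level than the median entry. Cisd2 and Chchd3 did not. Cisd1 and Chchd2 also stood low, but the WT eggs were part of how they were chosen. Cisd3 stood low as well, but its mean in GV oocytes was under 1 FPKM. To describe this, the FPKM of each egg library was expressed as a percentage of the mean FPKM in GV oocytes of the same genotype. Over the 10777 entries with at least 1 FPKM in GV oocytes, the median was 63.5% to 66.8% in the WT egg libraries. How many of those entries stood as low as these members was not counted. cDNA was primed with oligo-dT, so these values follow polyadenylated RNA, and a loss of transcripts cannot be told apart from a shorter poly(A) tail. Because pools of cells were sequenced and FPKM is a share of a library, fewer responding oocytes in a pool and less RNA per oocyte cannot be told apart either.

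Chchd6 and Chchd3, the MICOS pair, lay far apart in the share that remained. Chchd6 was at 6.45%, 11.7%, 8.63% and 12.0% of its GV level in the 4 WT egg libraries. Chchd3 was at 61.3%, 79.1%, 68.5% and 76.7%. The pair began at overlapping levels in WT GV oocytes and ended at 7.0 ± 1.9 and 49.2 ± 5.6 FPKM in WT eggs (SD, n = 4). Cisd2 kept 72.5% ± 6.4 of its GV level, close to the median entry, while Cisd1 kept 13.5% ± 0.9, Chchd1 18.0% ± 3.4, Chchd2 10.5% ± 2.0 and Chchd10 20.2% ± 3.2. Chchd5, a twin-CX9C protein of the intermembrane space, was at 14.7% ± 8.6, and Chchd7, which belongs to a family of cytochrome oxidase assembly factors, at 7.73% ± 0.84. Both were below 1 FPKM in all WT eggs, as was Cisd3. Chchd3 led the order of levels in WT eggs, its range apart from those of the other members.

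Of the 8 members chosen by name, 7 passed a mean of 1 FPKM over the WT libraries, and these 7 were called lower in WT eggs than in WT GV oocytes, against a background in which 52.4% of 10475 entries were called lower. The log2 changes of Chchd6, Chchd1 and Chchd10 were -3.41 ± 0.18, -2.48 ± 0.16 and -2.31 ± 0.15 (SE), with adjusted p of 2.87e-08, 1.12e-07 and 1.51e-07 (limma). Chchd3 changed by -0.49 ± 0.10 (adjusted p = 0.00074) and Cisd2 by -0.46 ± 0.11 (adjusted p = 0.0023), near the median of -0.44 over all entries tested. With libraries rescaled by their median ratio that median was -0.21, and Cisd2 was no longer called (-0.23 ± 0.11, adjusted p = 0.0779, limma). Chchd5 and Chchd7 changed by -1.66 ± 0.11 and -1.48 ± 0.15, values that are held back by the floor of 1 FPKM. Cisd1 changed by -2.88 and Chchd2 by -3.27 on the same scale. These last values are not tested, since the WT eggs were part of how both genes were chosen.

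In cKO eggs Cisd1, Cisd2, Chchd2, Chchd1, Chchd6 and Chchd10 stood higher relative to GV oocytes than in WT. Chchd3, Chchd5, Chchd7 and Cisd3 overlapped with WT. The median entry was at 64.6% to 72.6% of its GV level in the cKO egg libraries. Cisd1 was at 46.1%, 31.0%, 68.0% and 39.5% of its cKO GV level in replicates 1 to 4, and Chchd2 at 57.1%, 27.5%, 57.8% and 30.1%. Every one of these values was above every WT value of the same gene. That gap is in part fixed by how both genes were chosen, and its frequency over all entries was not counted. Shares above every WT value were also found among members chosen by name, and how often entries show this was not counted either. Chchd1 was at 38.3%, 26.6%, 90.4% and 50.7%, Chchd6 at 15.5%, 12.4%, 37.7% and 23.8%, and Chchd10 at 47.6%, 54.6%, 76.8% and 41.1%. For Chchd6 the lowest cKO value, 12.4%, was close to the highest WT value, 12.0%. Cisd2 was at 98.9% ± 9.4, so that its level in cKO eggs was about that in cKO GV oocytes. Its cKO values, 89.7% to 112%, were all above its WT values, 64.9% to 78.5%. Chchd3 was at 80.5% ± 4.0, overlapping with WT. Chchd5 was at 13.8%, 13.9%, 45.2% and 59.7%, and Chchd7 at 6.94%, 9.51%, 51.8% and 41.7%. Cisd3 was at 40.7%, 18.7%, 26.6% and 54.5%. All 3 rest on low levels in eggs.

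Of the 7 members tested by name, 6 were still lower in cKO eggs than in cKO GV oocytes, against a background of 51% of 10748 entries. Their log2 changes were -2.29 ± 0.30 for Chchd6, -1.26 ± 0.22 for Chchd5, -1.21 ± 0.18 for Chchd7, -1.09 ± 0.32 for Chchd1, -0.89 ± 0.20 for Chchd10 and -0.31 ± 0.09 for Chchd3 (SE, adjusted p from 1.02e-04 to 0.0124, limma). The member that did not pass was Cisd2, at -0.02 ± 0.10 (adjusted p = 0.872). Cisd1 changed by -1.16 and Chchd2 by -1.29, with no test. Thus 6 members were called lower after maturation in both genotypes. With libraries rescaled by their median ratio, which moved the median log2 change of all entries from -0.42 to -0.22, Chchd3 was no longer called in cKO (-0.11 ± 0.09, adjusted p = 0.295, limma) and Cisd2, again not called, was at 0.18 ± 0.10.

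**Figure D2:**
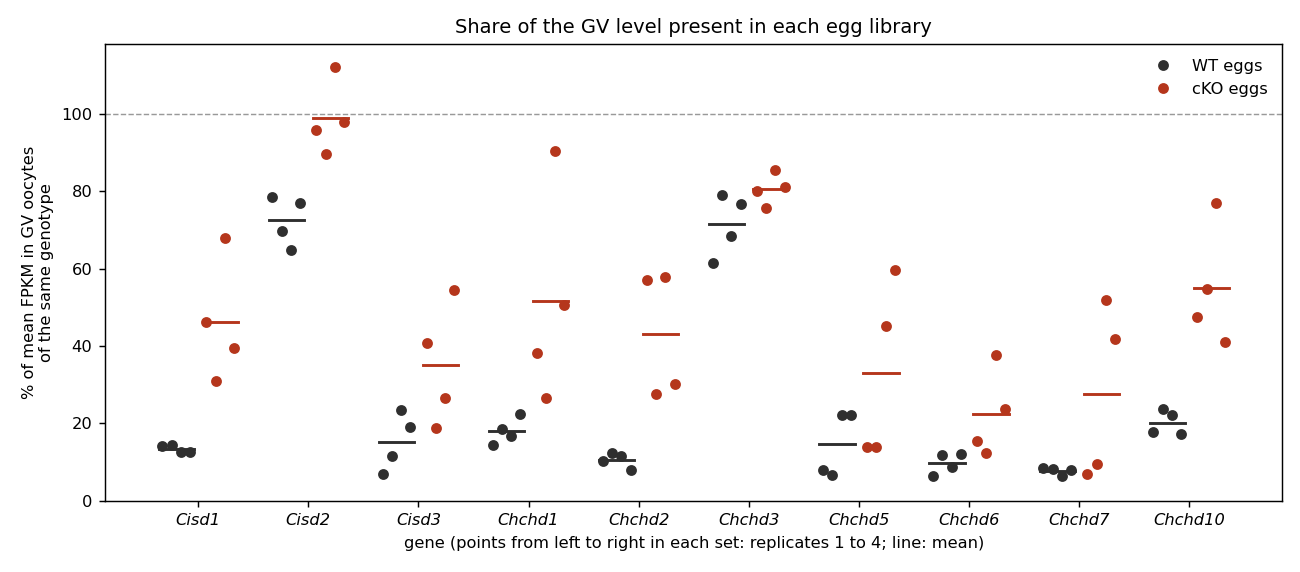
FPKM of each egg library as a percentage of the mean FPKM in GV oocytes of the same genotype, for WT and cKO eggs. Points are replicates 1 to 4 from left to right, lines are means, and the dashed line marks 100%. Cisd1 was at 12.6% to 14.3% in WT eggs and 31.0% to 68.0% in cKO eggs, while Chchd3 was at 61.3% to 79.1% and 75.7% to 85.5%.

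The direct comparison of genotypes in eggs asked whether the paralogues share the higher level that marked Cisd1 and Chchd2. Cisd1 was 24.1, 24.1, 21.3 and 21.5 FPKM in the 4 WT egg libraries and 75.7, 50.8, 111.7 and 64.8 FPKM in the 4 cKO egg libraries. Chchd2 was 20.1, 24.6, 22.7 and 15.6 FPKM in WT eggs and 113.6, 54.7, 115.0 and 59.9 FPKM in cKO eggs. For both genes even the lowest cKO library was more than 2-fold above the highest WT library, and the cKO libraries were also more spread. The ratio of mean FPKM was 3.33 for Cisd1 and 4.14 for Chchd2. On the log2 scale the differences were 1.68 and 1.98, and 1.47 and 1.82 without cKO egg replicate 3. These are the values on which the pair was chosen.

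By the fold rule stated for these data, a change of more than 3-fold in the means of FPKM with values below 1 set to 1, Cisd1 and Chchd2 were the 2 members that passed in eggs. Both were chosen on these egg values, so their passing is in part fixed by that choice. No member chosen by name passed. Over all 28618 entries 0.584% passed in that direction. Chchd1 at 2.68-fold, Chchd6 at 2.65-fold and Chchd10 at 2.52-fold lay under the limit and over 2-fold. Over all 28618 entries 1.97% were over 2-fold. Entries below 1 FPKM in every egg library are part of that total and cannot pass either limit, because the floor makes their means equal. In eggs 9492 entries had a mean of at least 1 FPKM, and the shares among those are not given here. Chchd7 would have been at 3.26-fold without the floor, but its levels were below 1 FPKM in 6 of 8 egg libraries.

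Chchd10, the close paralogue of Chchd2, was higher in cKO eggs. It was 4.12, 5.48, 5.13 and 4.00 FPKM in WT eggs and 10.2, 11.7, 16.5 and 8.81 FPKM in cKO eggs, with a wide gap between the genotypes. The log2 fold change was 1.31 ± 0.20 (SE, adjusted p = 0.0191, limma). Without cKO egg replicate 3 it was 1.13 (adjusted p = 0.0190). The call was lost when WT egg replicate 1, 3 or 4 was left out, with adjusted p between 0.0570 and 0.0701. In those fits 12, 3 and 31 of all entries tested were called higher, against 620 with every egg library. Over the 17 alternatives for Chchd10 the adjusted p ranged from 1.56e-04 to 0.0701 and 14 passed. The lowest came from the fit without a filter on low values, in which most residual variances were 0. The next was 6.2e-04 (limma), with all 16 libraries in 1 fit.

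Chchd1, the mitochondrial ribosome member, was 8.16, 10.6, 9.63 and 12.8 FPKM in WT eggs and 20.5, 14.2, 48.3 and 27.1 FPKM in cKO eggs. The genotypes did not overlap, but the cKO libraries were widely spread, with replicate 3 highest and replicate 2 nearest to WT. The log2 fold change was 1.29 ± 0.33 (SE, adjusted p = 0.0461, limma). Without replicate 3 it was 0.97 (adjusted p = 0.0524), and leaving out any single egg library other than cKO replicate 2 ended the call. Over all entries, 3 to 360 were called higher in the fits that ended it. Without cKO replicate 2, 1024 were, against 620 with every egg library. The adjusted p of Chchd1 ranged from 0.00234 to 0.130 over 17 alternatives, of which 7 passed. Again the lowest was from the fit without a filter, and the next was 0.0054 (limma), with all 16 libraries in 1 fit.

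Chchd6 showed an order of cKO libraries like that of Chchd1. It was 4.66, 8.44, 6.23 and 8.67 FPKM in WT eggs and 12.8, 10.3, 31.3 and 19.7 FPKM in cKO eggs. Again the genotypes did not overlap, and again replicates 3 and 2 were the highest and lowest cKO libraries. The log2 fold change was 1.32 ± 0.34 (SE, adjusted p = 0.0486, limma) and 1.02 without replicate 3 (adjusted p = 0.0705). Here too the call held, among the fits that leave out 1 library, only without cKO replicate 2. The counts over all entries in these fits are those given for Chchd1. The adjusted p of Chchd6 ranged from 0.00297 to 0.133 over 17 alternatives, of which 7 passed. The lowest was once more from the fit without a filter, and the next was 0.0042 (limma), with all 16 libraries in 1 fit.

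Chchd3, the other MICOS member, differed little. It was 42.2, 54.5, 47.2 and 52.8 FPKM in WT eggs and 55.4, 52.5, 59.3 and 56.2 FPKM in cKO eggs, with overlap. The log2 fold change was 0.19 ± 0.09 (SE, adjusted p = 0.197, limma), and it passed in 0 of 17 alternatives. The miss leaves a small difference possible. The log2 ratio of Chchd6 to Chchd3 was -3.18, -2.69, -2.92 and -2.61 in WT eggs and -2.11, -2.35, -0.92 and -1.51 in cKO eggs. Every cKO ratio was above every WT ratio, and the means differed by 1.13. The pair was singled out after its values were seen, so this difference has no test.

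Cisd2, the close relative of Cisd1, differed by far less than Cisd1 but in the same direction. It was 12.8, 11.4, 10.6 and 12.6 FPKM in WT eggs and 14.8, 13.8, 17.3 and 15.1 FPKM in cKO eggs. The genotypes did not overlap. The log2 fold change of 0.37 ± 0.10 missed the threshold (SE, adjusted p = 0.0567, limma), with a range of 0.0205 to 0.137 over 17 alternatives, of which 3 passed. It was 0.30 with cKO egg replicate 3 left out (adjusted p = 0.121).

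The 3 remaining members were too low in eggs to test. Cisd3 was 0.0675 to 0.233 FPKM in WT eggs and 0.131 to 0.381 FPKM in cKO eggs. Chchd5 was 0.248, 0.210, 0.697 and 0.698 FPKM in WT eggs and 0.418, 0.421, 1.37 and 1.81 FPKM in cKO eggs. Chchd7 was 0.239, 0.230, 0.185 and 0.224 FPKM in WT eggs and 0.180, 0.247, 1.35 and 1.08 FPKM in cKO eggs. For Chchd5 and Chchd7 the higher values came from cKO replicates 3 and 4, with the other 2 cKO libraries close to or among the WT values. Levels this low rest on few fragments.

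Among the 5 members chosen by name that could be tested in eggs, 3 were called higher and none lower, against 6.53% of 9492 entries called higher and 1.49% called lower. After rescaling by the median ratio the same 3 members were called, and the entries called shifted from 620 higher and 141 lower to 537 higher and 223 lower. The count was 1, for Chchd10, without cKO egg replicate 3, where 287 of 9365 entries were called higher. Of all 10 members, 6 had every cKO egg library above every WT egg library, where 13.6% of the entries tested did so, but for Cisd1 and Chchd2 the choice itself fixed this. The called members were Chchd1, Chchd6 and Chchd10, and Cisd2 was not called.

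**Figure D3:**
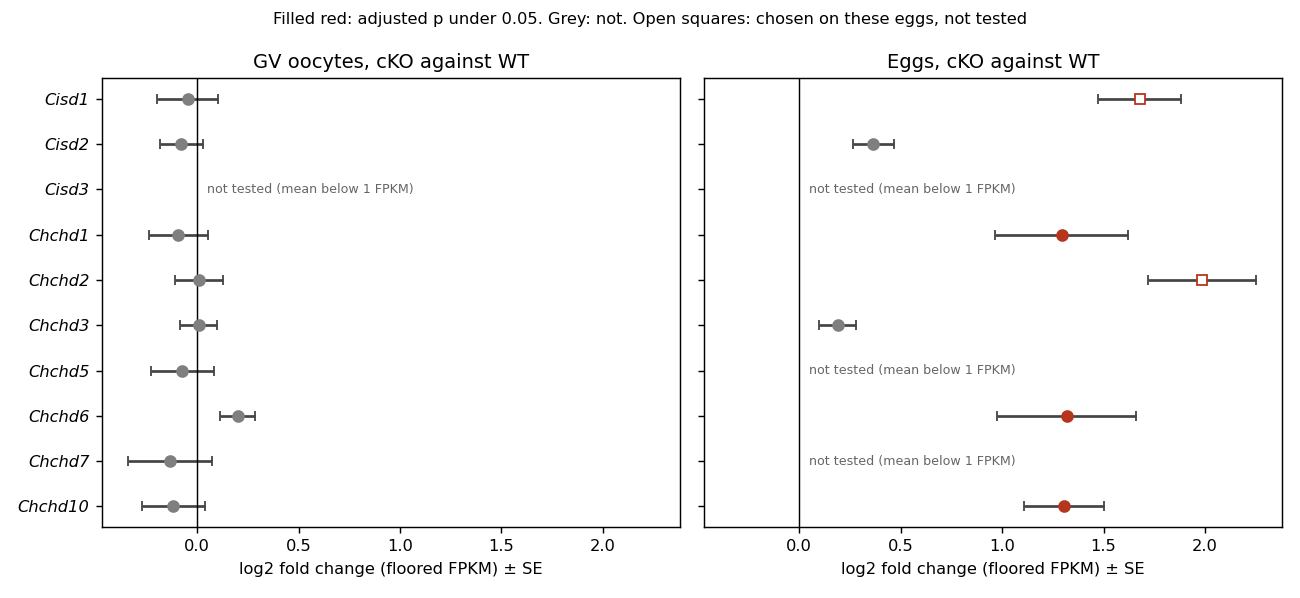
Log2 fold change of cKO against WT for each member in GV oocytes and in eggs, with the SE as bars, on FPKM with values below 1 set to 1. Filled red points passed an adjusted p of 0.05, grey points did not, and open squares mark the genes chosen on these eggs, which have no test. In eggs Chchd1, Chchd6 and Chchd10 lie between 1.29 and 1.32 on the log2 scale, Cisd2 at 0.37 and Chchd3 at 0.19.

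Whether the genotype difference in eggs exceeded that in GV oocytes was tested as an interaction over all 16 libraries. Chchd10 was called, with an interaction of 1.42 ± 0.26 on the log2 scale (SE, adjusted p = 0.0199, limma), where 1.07% of 10615 entries were called in that direction. It passed in each of the 16 fits that left out 1 library, with adjusted p from 0.00953 to 0.0488, and the highest value over its 24 alternatives was 0.0651, without a filter on low values. Chchd1 had a value of similar size, 1.39 ± 0.38, but did not pass (adjusted p = 0.0814), nor did Chchd6 at 1.12 ± 0.37 (adjusted p = 0.132) or Cisd2 at 0.44 ± 0.14 (adjusted p = 0.117). The remaining members were Chchd3 at 0.18 ± 0.13, Chchd5 at 0.40 ± 0.24 and Chchd7 at 0.27 ± 0.24, with adjusted p of 0.503, 0.431 and 0.622. Without cKO egg replicate 2, Chchd1 and Chchd6 passed as well, in a fit where 605 of 10678 entries were called higher. For Cisd1 and Chchd2 the interaction was 1.72 and 1.98, given without a test.

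The cKO egg libraries did not rank alike for every member. Relative to the WT egg mean, Cisd1 was at 1.73, 1.16, 2.30 and 1.51 on the log2 scale in cKO replicates 1 to 4, without a floor. Chchd2 was at 2.45, 1.40, 2.47 and 1.53, so that replicates 1 and 3 stood together. For Chchd1 the values were 1.00, 0.47, 2.23 and 1.40, and for Chchd6 0.88, 0.56, 2.16 and 1.49, with replicate 3 highest and replicate 2 lowest. Chchd10 was at 1.12, 1.32, 1.81 and 0.91, the narrowest spread among the called members. Psma7 itself was at -3.21, -1.32, -1.85 and -1.07 in the same libraries, lowest in replicates 1 and 3. With 4 libraries no correlation was computed, and whether the residual Psma7 level plays a part in any of these values was not tested.

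**Figure D4:**
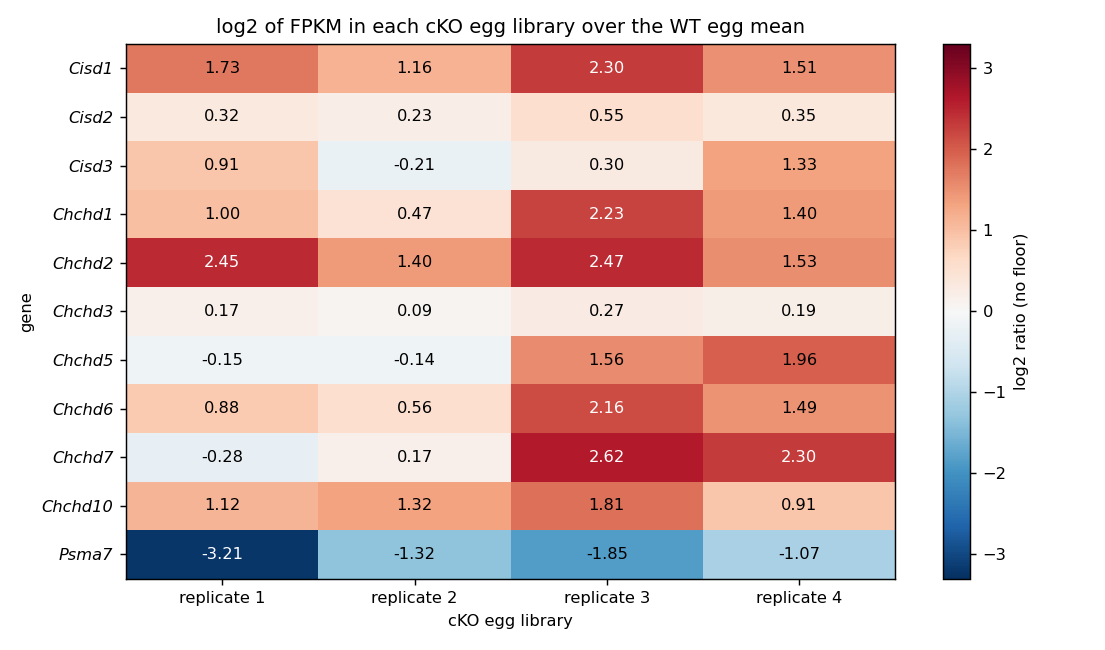
Log2 of the FPKM in each cKO egg library over the mean of the 4 WT egg libraries, for the 10 members and Psma7, with no floor on low values. Red is higher and blue lower than the WT mean, and the value is printed in each cell. Replicate 3 holds the highest value for Cisd1, Cisd2, Chchd1, Chchd2, Chchd3, Chchd6, Chchd7 and Chchd10, and Chchd5 and Chchd7 are near or below 0 in replicates 1 and 2.

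The entries whose pattern over the 16 libraries was most like that of Cisd1 and Chchd2 were found among 10615 entries by Pearson's r on the log2 scale. For Cisd1 they were BC031181 (r = 0.994), Rps13 (r = 0.994) and Spcs1 (r = 0.993), and for Chchd2 they were Speer5-ps1 (r = 0.993), Cisd1 (r = 0.990) and Spcs1 (r = 0.990). Rps13 encodes a protein of the cytosolic ribosome and Spcs1 a subunit of the signal peptidase. The points share their libraries and the large stage difference dominates them, so r is a description with no test. Rps13 was 362.1 ± 76.2 FPKM in WT GV oocytes, 363.1 ± 107.7 in cKO GV oocytes, 23.8 ± 6.0 in WT eggs and 125.4 ± 76.2 in cKO eggs (SD, n = 4). Cisd1 was thus among the 3 entries most like Chchd2, and Chchd2 was not among the 3 most like Cisd1. Both were chosen for the same difference between the egg groups, so their likeness is in part fixed by that choice. No other member was among the 3 entries listed for either gene, and r is not given for entries further down.

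The positions and transcripts of the members were taken from GENCODE M21 on GRCm38, matched by symbol for all 10. Cisd1 lies at chr10:71330480-71344954 on the minus strand, with a transcript of 1084 nt, of which 327 nt are coding and 557 nt are 3′ UTR. Chchd2 lies at chr5:129881156-129887470 on the minus strand, with 915 nt, of which 462 nt are coding and 230 nt are 3′ UTR. Chchd10, at chr10:75933130-75937747 on the plus strand, and Chchd1, at chr14:20703006-20704425 on the plus strand, are likewise short in 3′ UTR, with 153 and 191 nt. Chchd6 at chr6:89383146-89595652 and Chchd3 at chr6:32790976-33060260 are on the minus strand and hold 192 and 686 nt of 3′ UTR. Cisd2 at chr3:135406412-135423925 on the minus strand has the longest, 2389 nt. The 2 members that kept most of their GV level in WT eggs, Cisd2 and Chchd3, thus had longer 3′ UTRs than Cisd1 and Chchd2. Chchd5, at 14.7% in WT eggs, has 836 nt, so the order of lengths was not the order of shares.

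The 3′ ends of these 4 are shown because the libraries were primed from the poly(A) tail. Each line is 30 bases of the mRNA sense strand that end with the poly(A) signal, in capitals, at chr10:71330506-71330535, chr5:129881173-129881202, chr3:135406431-135406460 and chr6:32792241-32792270, all on the minus strand.
Cisd1: ctccttaaacttgcccgggtcaccAATAAA
Chchd2: gtgttgtgattgtgagttaaaaaaAATAAA
Cisd2: tcatgtaagagctattcttaaactATTAAA
Chchd3: ctgacaacttcactcactatcaatAATAAA
In the last 100 nt of the transcript, on the sense strand alone, AATAAA or ATTAAA was found in 9 of 10 members, where 73.9% of 21825 annotated transcript ends hold one or the other. TTTTAT or TTTTAAT, letters of the cytoplasmic polyadenylation element, was found in Cisd2 alone, 40 nt before its signal, and in 16.4% of all ends. TGTANATA, the motif of Pumilio proteins, was in 0 of 10 members and in 3.97% of all ends. A match describes letters in this window and no binding.

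Near-identical copies could share reads with Chchd2 and, to a lesser degree, Cisd1 and Chchd5. Zbed5 matched the Chchd2 transcript at 98.5% over 454 nt, the pseudogene Gm12350 at 98.9% over 462 nt and Gm4995 at 93.5% over 414 nt. Zbed5 was listed at 11.5, 12.7, 4.39 and 4.29 FPKM on average in WT GV oocytes, cKO GV oocytes, WT eggs and cKO eggs, the 2 egg means lying close together. Gm12350 was at 0.116 ± 0.169 FPKM in WT eggs and 0.534 ± 0.285 FPKM in cKO eggs (SD, n = 4), far below Chchd2. For Cisd1, Gm8738 matched at 93.6% over 329 nt and was listed at 0 in every egg library. Copies with no FPKM entry were Chchd2-ps (98.7% over 462 nt) and Gm6222 (94.6% over 408 nt) for Chchd2. For Chchd5 there was Gm7209 (91.6% over 333 nt), also with no entry. The share of Chchd2 reads that could come from such copies was not tested. Phkg1 overlaps Chchd2 on the same strand and was at 0.322 ± 0.136 and 0.450 ± 0.232 FPKM in WT and cKO eggs, and Mmp11, opposite Chchd10, was at most 0.029 FPKM in any library. 6230400D17Rik, antisense to Chchd1, was at 0 in every egg library. The sources used here do not say whether strand was used in counting.

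Other genes of the pathways in which the members act were listed by function, not by how they moved. The first list holds 17 genes for oxidative import into the intermembrane space and for other twin-CX9C proteins, and 16 were tested. In GV oocytes 0 of 16 were called. In eggs 3 of 16 were higher and 0 lower, where 6.53% of all entries tested were called higher: Coa6 (1.47 ± 0.28, adjusted p = 0.0292) and Cmc1 (1.03 ± 0.15, adjusted p = 0.0191), which serve cytochrome oxidase assembly, and Gfer (0.78 ± 0.15, adjusted p = 0.0276), the sulfhydryl oxidase of the import pathway (log2 fold change ± SE, limma). Cmc1 was 21.1, 16.3, 15.8 and 16.3 FPKM in WT eggs and 33.0, 31.2, 46.8 and 31.7 FPKM in cKO eggs, without overlap. The median log2 fold change over the 16 was 0.86, against 0.07 over all entries tested. Without cKO egg replicate 3 the same 3 genes were called and the median was 0.63. The count was 0 or 1 when any WT egg library or cKO replicate 1 was left out, and 9 without cKO replicate 2. Over all entries, 3 to 166 were called higher in the former fits and 1024 in the latter, against 620 with every egg library. During maturation 13 of 16 were lower in WT and 11 in cKO, where 52.4% and 51% of all entries were. After rescaling by the median ratio these counts were 13 and 9, against 45.8% and 44.5% of all entries.

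The second list holds 9 partners of Chchd3 and Chchd6 in MICOS and its links to the outer membrane. In GV oocytes 0 of 9 were called. In eggs 2 of 8 tested were higher and 0 lower, against 6.53% of all entries called higher, namely Mtx2, an outer membrane partner (0.75 ± 0.19, adjusted p = 0.0472), and Minos1, a core MICOS subunit (0.39 ± 0.09, adjusted p = 0.0369). The median log2 fold change of the 8 was 0.36. Without cKO egg replicate 3, or without any 1 WT egg library, 0 of 8 were called. Over all entries, 287 were called higher without cKO egg replicate 3 and 3 to 109 without 1 WT egg library. Mtx2 was 57.8, 54.8, 60.9 and 43.1 FPKM in WT eggs and 111.4, 97.3, 101.0 and 60.1 FPKM in cKO eggs, where the highest WT library exceeded the lowest cKO library. In WT maturation 7 of 8 were lower, against 52.4% of all entries, and Minos1 was higher. After rescaling by the median ratio, 5 of 8 were lower there, against 45.8%, and 1 of 8 was called higher in eggs.

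The third list holds 19 genes of iron-sulfur cluster assembly, which supplies clusters of the kind that Cisd proteins carry, and 18 were in the table. In GV oocytes 0 of 17 tested were called. In eggs 3 of 14 were higher and 0 lower, against 6.53% of all entries called higher, and 2 of 14 were higher after rescaling by the median ratio. The median log2 fold change of the 14 was 0.10, close to that of all entries. Isca1, a late-acting assembly factor, was 63.9, 59.6, 71.8 and 61.7 FPKM in WT eggs and 142.5, 97.5, 171.0 and 120.0 FPKM in cKO eggs, with no overlap (1.02 ± 0.16, adjusted p = 0.0191). Bola3 (0.42 ± 0.08, adjusted p = 0.0306) and Hscb (0.37 ± 0.09, adjusted p = 0.0386) differed by less. Isca1 alone was called without cKO egg replicate 3, and 0 of 14 were called without WT egg replicate 1, 3 or 4. Over all entries, 287 were called higher in the first of these fits and 12, 3 and 31 in the others. Isca1 resembled Cisd1 in falling with maturation, from 297.6 ± 22.8 FPKM in WT GV oocytes, whereas Bola3 and Hscb were at 22.6 ± 4.0 and 44.7 ± 7.5 FPKM there and at 22.5 ± 2.1 and 40.5 ± 3.3 FPKM in WT eggs (SD, n = 4).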

How the data were processed

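Libraries followed the Smart-seq2 method, in which reverse transcription starts from oligo-dT. According to the submitters' processing notes TopHat2 2.1.1, Cufflinks 2.2.1 and the mm10 genome were used. The authors deposited FPKM per entry, and FPKM below 1 was set to 1, as the study states. The table held 0 entries for the ERCC spike-in, so values are shares of a library. It was compared by genotype within stage, by stage within genotype and by their interaction with limma 3.58.1 in R 4.3.3 (empirical Bayes with intensity trend, log2 scale), over entries with a mean of at least 1 FPKM, with Benjamini-Hochberg adjusted p under 0.05 as the threshold. The study states no model for calls across all transcripts. Where only means were compared, a change of more than 3-fold was counted. The fits were tested on simulated data.

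The members, lists and tests were chosen with earlier results of these data known. The text names all 10 members, Psma7, up to 3 called genes at each end of each pathway list and the 3 entries most like Cisd1 and Chchd2. Chosen after their values were seen were the Chchd6 to Chchd3 ratio, near copies and overlapping genes. Copies were found with BLAST 2.17.0 (at least 90% identity over 100 nt). Replicates are pools that the labels call biological; without a link to separate animals, p-values measure the spread between pools. FPKM gives no counts, so no counting intervals are attached. No batch or date was given in the sources used here. Alternatives changed the floor, the scaling between libraries, the filter, the moderation, the replicate block and the libraries included.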

Additional observations from a re-analysis of the deposited data

Results flagged for a closer look

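For Chchd10 the genotype difference of eggs exceeded the one at the GV stage by 1.42 (log2 scale, interaction test over 16 libraries as given above).

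Within groups of 4, the gap of 1 library to its nearest neighbour was compared with the whole range of the group. In cKO GV oocytes Chchd3 was 73.0, 72.0, 60.7 and 71.6 FPKM, and replicate 3 lay apart with a gap of 0.885 of the range. Chchd10 was 27.3, 18.9, 20.2 and 19.3 FPKM there, and replicate 1 lay apart with 0.845. Both exceed Dixon's critical value for 4 samples. These were 2 of 40 groups examined, and chance gives about 1 in 20.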

How the results depend on the processing

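In GV oocytes 0 of the members were called under any alternative. The count of lower members was 7 in WT maturation and 6 in cKO maturation except under 2 alternatives. With libraries rescaled by their median ratio it was 6 and 5, without Cisd2 in WT and Chchd3 in cKO, and with a mean of at least 5 FPKM required it was 5 and 4, since Chchd5 and Chchd7 were then not tested. Rescaling moved the median log2 change of all entries from -0.44 to -0.21 in WT maturation and from -0.42 to -0.22 in cKO maturation, and the entries called from 2738 higher and 5486 lower to 3481 and 4789 in WT and from 2472 and 5482 to 3127 and 4735 in cKO. In eggs it moved them from 620 higher and 141 lower to 537 and 223. In eggs the count of 3 called members was 1 with 1 FPKM added to every value, 1 without the intensity trend and 1 with the replicate number as a block. Over all entries, 562, 415 and 101 were called higher in these fits. The member count in eggs ranged from 0 to 4 when 1 library was left out, with 0 without WT egg replicate 1, 3 or 4 and 4 without cKO egg replicate 2. Over all entries, 12 of 9542, 3 of 9533 and 31 of 9549 were called higher without WT egg replicate 1, 3 and 4. Without cKO egg replicate 2, 1024 of 9516 were. The interaction count of 1 became 0 without a filter on low values, a fit in which most residual variances were 0. The egg fit without that filter shares this limit. There 3 members were called, and 974 of 28618 entries were called higher. The interaction count ranged from 1 to 3 when 1 library was left out. It was 3 without cKO egg replicate 2, where 605 of 10678 entries were called higher. The count of 2 members over 3-fold, both chosen on egg values, became 5 at 2-fold. There 1.97% of all 28618 entries passed, a total that includes entries which the floor keeps from passing. The 3-fold count ranged from 1 (without cKO egg replicate 3) to 4 (without cKO egg replicate 2).

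The replicate numbers did not pair the libraries: same-numbered libraries correlated between -0.496 and 0.285 in their deviations over 16 pairs, and 2 of 16 libraries correlated best with their own number. With the replicate block 101 entries were called higher and 7 lower in eggs, against 620 and 141 without it. The egg log2 differences of Cisd1 and Chchd2 ranged from 1.47 to 1.85 and from 1.82 to 2.17 when 1 library was left out. With 1 FPKM added or libraries rescaled by their median ratio they were 1.64 and 1.61 for Cisd1 and 1.93 and 1.92 for Chchd2. Transcripts well under 1 FPKM, such as Cisd3 and, in eggs, Chchd5 and Chchd7, rest on few fragments at this depth. For the pathway lists, leaving out libraries and rescaling were chosen after seeing the data.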
